A study of Rattus norvegicus with 18 samples.

Results

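Fatty acid oxidation genes were followed in the renal parenchyma of rats whose left ureter had been ligated, the unilateral ureteral obstruction model of kidney injury and fibrosis. The set was given by name and comprised 35 genes: the enzymes that activate fatty acids, the carnitine shuttle and the oxidation spiral of mitochondria, the parallel spiral of peroxisomes, and a pair of regulators. Of these, 33 were found by gene name among the 30957 genes of the table; Acsm2, a medium-chain acyl-CoA synthetase, and Eci2, a peroxisomal enoyl-CoA isomerase, had no row of that name. All 33 passed the filter on low counts. The study sequenced poly(A) RNA of 18 libraries, with 5 libraries after 1 day of ligation, 5 after 3 days, 5 after 7 days and 3 labelled 14 days. All came from kidneys labelled as obstructed; no other treatment, strain or age is given, and the sham group that the design names was not analysed here, so each comparison is between durations. In bulk tissue, fewer cells of a type and less RNA per cell cannot be told apart.

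The kidney tubule, and the proximal tubule above all, takes most of its ATP from fatty acids. A long-chain fatty acid enters the cell with help from CD36, is joined to coenzyme A by an acyl-CoA synthetase, and crosses into the mitochondrion as a carnitine ester through CPT1 and CPT2. There each turn of the spiral removes an acetyl unit, through the successive work of acyl-CoA dehydrogenases, enoyl-CoA hydratases, hydroxyacyl-CoA dehydrogenases and thiolases. Peroxisomes use acyl-CoA oxidases in place of the dehydrogenases and pass shortened chains on as carnitine esters made by CROT and CRAT. The nuclear receptor PPARα, encoded by Ppara, and its coactivator PGC-1α, encoded by Ppargc1a, switch on many of these genes, and loss of this programme is a known feature of fibrotic kidneys.

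Promoters are shown here for 4 members because PPARα binds DNA with RXR at a direct repeat, called DR1, and because Hadha and Hadhb share their promoter region. RefSeq promoters of the GRCr8 assembly, 250 bases before to 50 after the start of the gene, were matched to 31 of the 35 members. They were searched on both strands for AGGTCANAGGTCA, in which 12 positions are defined. With at most 2 mismatches the motif was found in 4 of the 31 members (12.9%) and in 3.77% of all 33469 promoters; with at most 3 it was found in 10 members (32.3%) against 24.9%. The single member with at most 1 mismatch was Acadvl, the very long-chain acyl-CoA dehydrogenase, and Crat, Echs1 and Etfa had 2. The stretches below are the 250 bases upstream of each start, 5′ to 3′ on the strand of the gene, with the best match in capitals. Acadvl lies on the minus strand (chr10:55236706-55236955), as do Crat (chr3:34087100-34087349) and Echs1 (chr1:204333507-204333756), and Hadha lies on the plus strand (chr6:31907551-31907800).
Acadvl: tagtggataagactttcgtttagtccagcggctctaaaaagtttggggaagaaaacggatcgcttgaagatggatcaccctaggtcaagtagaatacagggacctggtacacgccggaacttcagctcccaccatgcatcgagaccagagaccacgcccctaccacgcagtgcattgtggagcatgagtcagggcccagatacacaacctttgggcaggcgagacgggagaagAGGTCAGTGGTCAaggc
Crat: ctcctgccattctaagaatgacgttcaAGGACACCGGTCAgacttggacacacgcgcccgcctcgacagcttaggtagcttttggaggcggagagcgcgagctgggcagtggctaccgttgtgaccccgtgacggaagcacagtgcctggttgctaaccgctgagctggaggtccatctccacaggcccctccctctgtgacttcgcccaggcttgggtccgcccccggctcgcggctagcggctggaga
Echs1: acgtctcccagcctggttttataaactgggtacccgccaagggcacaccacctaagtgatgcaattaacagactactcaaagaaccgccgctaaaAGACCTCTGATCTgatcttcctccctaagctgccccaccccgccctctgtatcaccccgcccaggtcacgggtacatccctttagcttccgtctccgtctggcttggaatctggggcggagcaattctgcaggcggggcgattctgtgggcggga
Hadha: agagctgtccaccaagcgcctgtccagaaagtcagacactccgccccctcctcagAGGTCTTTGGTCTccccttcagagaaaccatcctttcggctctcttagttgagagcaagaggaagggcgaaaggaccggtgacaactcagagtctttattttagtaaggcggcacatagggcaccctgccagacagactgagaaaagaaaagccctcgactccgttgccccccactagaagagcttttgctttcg
In Echs1 the capitals are the motif read on the opposite strand. Hadha and Hadhb encode the alpha and beta subunits of the mitochondrial trifunctional protein; their starts lie 301 bases apart and their genes point away from each other, so their upstream stretches overlap by 200 bases and hold the same match, with 3 mismatches. The ratio of Hadha to Hadhb FPKM was 0.918 to 1.34 over the 18 libraries. No other pair of genes was compared in this way, and a part of the shared region in these levels was not tested. A match is a description of letters, not a measured binding site.

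Total counts were 5488540 to 12049915 per library, and the members took 0.23% to 0.627% of them. FPKM are the values deposited by the authors, in which the count is divided by the length of the gene and by the library total. The libraries labelled 14 days went against their label: Havcr1, the tubular injury marker KIM-1, was at 0.317 to 7.45 FPKM there and at 188 to 1040 FPKM in the 15 other libraries. They also differed among themselves. In replicates 1 and 3 the summed FPKM of 15 proximal tubule markers was 269 and 230, against 756 to 3464 in the libraries of 1, 3 and 7 days, while replicate 2 had 5338. Adipocyte markers (6 genes) summed to 109, 41.3 and 844 FPKM in replicates 1, 2 and 3, against 8.77 to 47.2 in the other 15 libraries, and collecting duct markers (7 genes) to 1472, 344 and 1310 FPKM. Replicate 5 of day 1 leaned the same way, with a collecting duct sum of 887 FPKM against 167 to 349 in the other 14 libraries of 1, 3 and 7 days. Results are therefore given from the model over all 18 libraries and, where it changes a call, without the libraries labelled 14 days. The map of members by library shows these features.

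**Figure D1:**
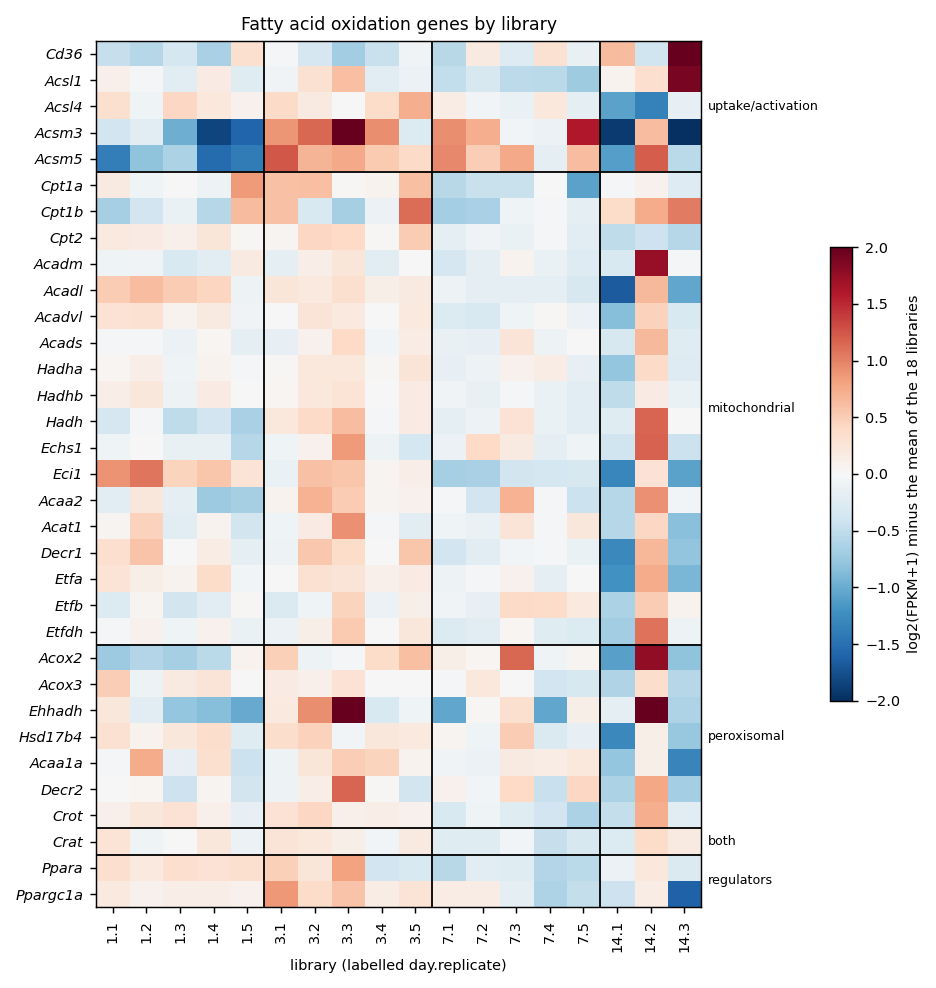
Each row is a member, grouped by step, and each column a library, named by labelled day and replicate; colour is log2(FPKM+1) minus the mean of the gene over the 18 libraries, clipped at 2 units either way. Acsm5 is low in every day 1 library, Eci1 is high there, and in the libraries labelled 14 days replicate 2 (14.2) is red across most mitochondrial rows while replicates 1 and 3 are blue.

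Mitochondrial enzymes had the highest levels. At 1 day Acadl, the long-chain acyl-CoA dehydrogenase, stood at 248 ± 44 FPKM (mean ± SD, n = 5), followed by Etfa (134 ± 15.7 FPKM), a subunit of the flavoprotein that takes electrons from the dehydrogenases, Eci1 (128 ± 30 FPKM), the enoyl-CoA isomerase for unsaturated chains, and its partner subunit gene Etfb (109 ± 14.3 FPKM). The ranges of Etfa, Eci1 and Etfb overlapped, so their order is not separated by this spread. Hadha (107 ± 6.06), Acadm, the medium-chain dehydrogenase (104 ± 13.8), Hadhb (101 ± 9.16) and Decr1, which reduces double bonds (99.3 ± 20.2), formed the next level in FPKM. Acat1 and Acaa2, thiolases, were at 85 ± 19.3 and 54.3 ± 15.1 FPKM, and Acads, the short-chain dehydrogenase, at 40.8 ± 2.5 FPKM. Of the carnitine acyltransferases that admit fatty acids, the liver-type Cpt1a was at 55.4 ± 17.8 FPKM and the muscle-type Cpt1b at 4.87 ± 2.42 FPKM. Among peroxisomal members Hsd17b4, the D-bifunctional protein, was highest at 87.4 ± 13.6 FPKM, and Acaa1a, a thiolase, followed at 54.4 ± 18.3 FPKM. The acyl-CoA oxidase Acox2, which acts on branched chains and bile acid intermediates, was at 0.834 ± 0.46 FPKM, against 19.7 ± 3.39 FPKM for Acox3. Cd36 was low at 1.24 ± 0.687 FPKM.

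From 1 to 3 days the share of members called was close to that of all genes. Of the 33 members 1 was called higher and 0 lower, or 3.03% (edgeR quasi-likelihood test, Benjamini-Hochberg adjusted over 14511 genes). Over all genes tested 2.27% were called. The called member was Acsm5, which joins medium-chain fatty acids to coenzyme A in the mitochondrial matrix. The day 1 libraries, replicates 1 to 5, held 0.395, 1.09, 1.34, 0.252 and 0.378 FPKM of Acsm5, and the day 3 libraries 7.59, 4.85, 5.14, 4.24 and 3.73 FPKM. Every day 3 library was above every day 1 library. The log2 fold change was 2.84 ± 0.61 (SE; adjusted p = 0.026), or 2.83 ± 0.40 without the libraries labelled 14 days. The call was lost when replicate 1 or 4 of day 1 or replicate 1, 3 or 4 of day 3 was left out, with adjusted p of 0.0504 to 0.073, and the log2 fold change stayed between 2.64 and 3.26 over all settings tried. Acsm5 (ENSRNOG00000031211) lies on chromosome 1 from 189233141 to 189272172 in the deposited annotation, whose build is not named, and its relative Acsm3 (ENSRNOG00000032246) from 189514553 to 189541224.

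Acsm3, also a medium-chain synthetase, had 41.8, 46.8, 27.2, 14.6 and 17.5 FPKM at 1 day and 101, 122, 603, 105 and 44.8 FPKM at 3 days. Replicate 3 of day 3 stood far above the rest, and replicate 5 fell within the day 1 range. Its log2 fold change of 2.75 ± 0.80 did not pass the test (adjusted p = 0.0833) but did without the libraries labelled 14 days (2.74 ± 0.65, adjusted p = 0.0184). Hadh, the short-chain hydroxyacyl-CoA dehydrogenase, was at 35, 42.9, 30.8, 33.6 and 27.8 FPKM at 1 day and at 51.3, 57.8, 68.4, 43.2 and 50 FPKM at 3 days. As for Acsm5, the groups did not overlap. The share of all genes separated in this way is not given here for this comparison. The log2 fold change of Hadh, 0.66 ± 0.28 (adjusted p = 0.231), passed without the libraries labelled 14 days (0.66 ± 0.16, adjusted p = 0.0218). In that fit 3 members were called higher (Acsm3, Acsm5 and Hadh) and 0 lower, beside 10.5% of all genes called in either direction. Leaving out replicate 3 of day 3 as well gave 2 members called.

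The other steps moved little over these days. The 18 mitochondrial members had a median log2 fold change of 0.15 and the 7 peroxisomal members of 0.08, beside -0.01 over all genes tested, and 0 members of either set were called (1 of each had an unadjusted p under 0.05; leaving the libraries labelled 14 days out of the fit gave 1 and 0 called). Cpt1a (0.19 ± 0.22), Acadm (0.09 ± 0.34), Hadha (0.11 ± 0.21), Crot (0.08 ± 0.24), Ppara (-0.08 ± 0.30) and Ppargc1a (0.35 ± 0.31) all had log2 fold changes whose 95% intervals included 0. Larger shifts with wide errors were seen in Ehhadh, the peroxisomal L-bifunctional protein (1.36 ± 0.63, adjusted p = 0.268), and in Acox2 (1.28 ± 0.74, adjusted p = 0.379). Ehhadh was at 22.5, 16.1, 10.7, 10.1 and 8.94 FPKM at 1 day and at 21.9, 37.4, 80.8, 15.2 and 17.8 FPKM at 3 days, so replicate 3 carried much of the difference. That library also had the highest proximal tubule sum of the 15 libraries of 1, 3 and 7 days, at 3464 FPKM against 1264 to 2215 in the other day 3 libraries. Across the 15 proximal tubule markers 13 had positive log2 fold changes from 1 to 3 days, with a median of 0.73 and 0 called; their part in the member results was not tested.

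**Figure D2:**
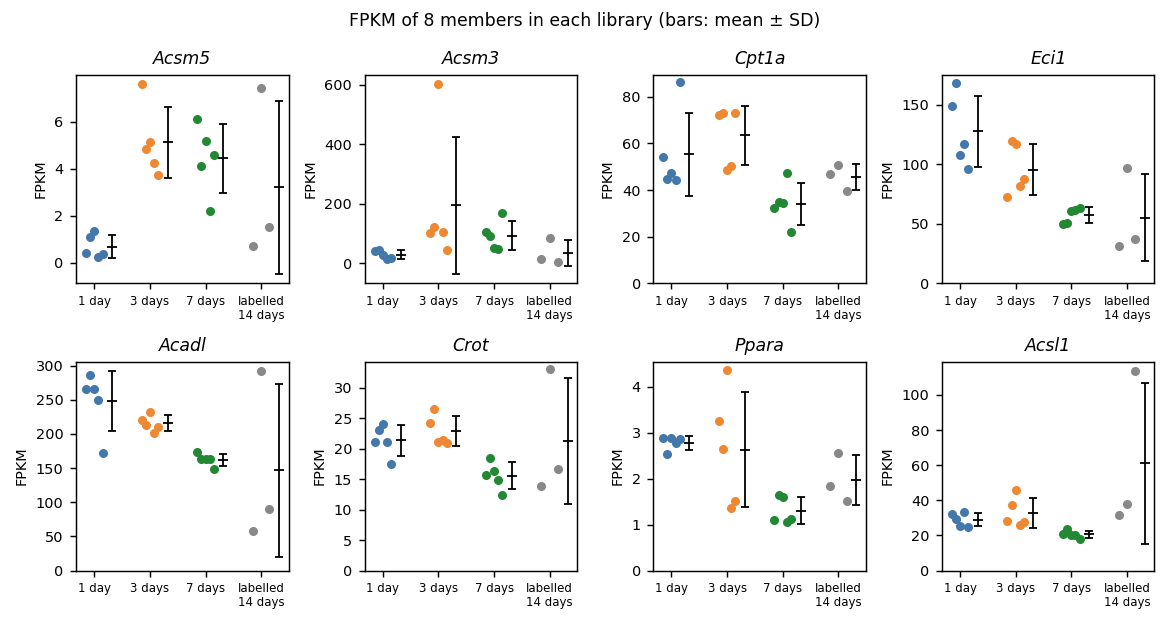
FPKM of 8 members in each library (points, by labelled duration) with the mean and SD of the group beside them. Among the first 3 durations Acsm5 is separated between 1 day and later, and the group means of Eci1, Acadl and Crot are lowest at 7 days; and in the libraries labelled 14 days Acadl and Crot split into a single high library and 2 low ones.

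From 3 to 7 days 30 of 33 members had negative log2 fold changes, with a median of -0.36, while 50.1% of all genes tested were negative. The day 3 libraries enter both this comparison and that with 1 day, so opposite signs in them are not independent. A single member passed the test over all 18 libraries, Cpt1a, and 0 were higher; 1.05% of all genes were called, 0.331% as lower. Cpt1a encodes the enzyme that sets the rate of mitochondrial fatty acid entry. It was at 72.1, 73.2, 48.7, 50.4 and 73.3 FPKM at 3 days and at 32.2, 34.7, 34.6, 47.4 and 22.1 FPKM at 7 days. The groups did not overlap, though the highest day 7 library was only just below the lowest day 3 library. Its log2 fold change was -0.96 ± 0.22 (adjusted p = 0.0488), a call near the threshold that was kept in 9 of 27 settings with a value between -1.10 and -0.84. Leaving out any single library of 3 or 7 days, any of replicates 1 to 4 of day 1, or replicate 1 labelled 14 days ended it, with adjusted p of 0.0511 to 0.14. Cpt1a (ENSRNOG00000014254) lies on chromosome 1 from 218569510 to 218629678 in the deposited annotation.

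Without the libraries labelled 14 days, whose spread enters the shared estimate, 11 members were called lower and 0 higher from 3 to 7 days, that is 33.3% of the members, beside 3.17% of all genes called lower. They were spread over the pathway. In uptake and activation they were Acsl1 (-0.76 ± 0.17, adjusted p = 0.018) and Acsl4 (-0.43 ± 0.13, adjusted p = 0.0497), long-chain acyl-CoA synthetases. Of the mitochondrial members 5 of 18 were called: Cpt1a, Cpt2 (-0.51 ± 0.11), Acadl (-0.48 ± 0.12), Hadhb (-0.34 ± 0.10) and Eci1 (-0.82 ± 0.19). Of the peroxisomal members 1 of 7 was called, Crot, which makes the carnitine esters that leave the peroxisome (-0.63 ± 0.12, adjusted p = 0.00844). Crat, the carnitine acetyltransferase of both organelles, had -0.48 ± 0.11 (adjusted p = 0.0186), and the regulators Ppara and Ppargc1a had -1.09 ± 0.29 (adjusted p = 0.037) and -0.76 ± 0.17 (adjusted p = 0.0195). Fits without replicate 3 of day 3 or without replicate 5 of day 1 in addition called 8 and 14 members lower. All these log2 fold changes differed by 0.01 or less from those over 18 libraries; what changed was their error. Of the 15 proximal tubule markers 13 had negative log2 fold changes over these days, with a median of -0.46 and 0 called (1 lower without the libraries labelled 14 days). Fibroblast markers were positive in 6 of 6, with a median of 1.46 and 2 called higher (5 without the libraries labelled 14 days), and macrophage (6 of 6) and T cell (4 of 4) markers had medians of 1.13 and 1.23 with 0 called (2 and 0 in that fit). Their part in the member results was not tested.

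The library values show how tight some of these steps were. Acadl was at 221, 213, 232, 202 and 209 FPKM at 3 days and at 174, 163, 164, 163 and 148 FPKM at 7 days. No day 7 library reached the lowest day 3 value. Crot, at 24.3, 26.5, 21, 21.5 and 20.9 FPKM at 3 days, was at 15.8, 18.5, 16.4, 14.9 and 12.4 FPKM at 7 days, again without overlap. Eci1 went from 72.2, 119, 117, 82.1 and 87.4 FPKM to 49.7, 50.4, 61.2, 61.8 and 63.5 FPKM. In all, 9 of 33 members had day 7 libraries that were all below the day 3 libraries in FPKM (Acsl1, Cpt1a, Cpt2, Acadl, Hadhb, Eci1, Crot, Crat and Ppargc1a) and 0 had the reverse, beside 1.32% of all genes tested that were lower in this way. The members that moved least were Etfb (0.05 ± 0.24) and Acox2 (0.03 ± 0.70), and Cd36 was at 0.33 ± 0.59. Acadm (-0.24 ± 0.34), Hadha (-0.26 ± 0.21) and Ehhadh (-1.18 ± 0.63) did not pass in either fit.

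**Figure D3:**
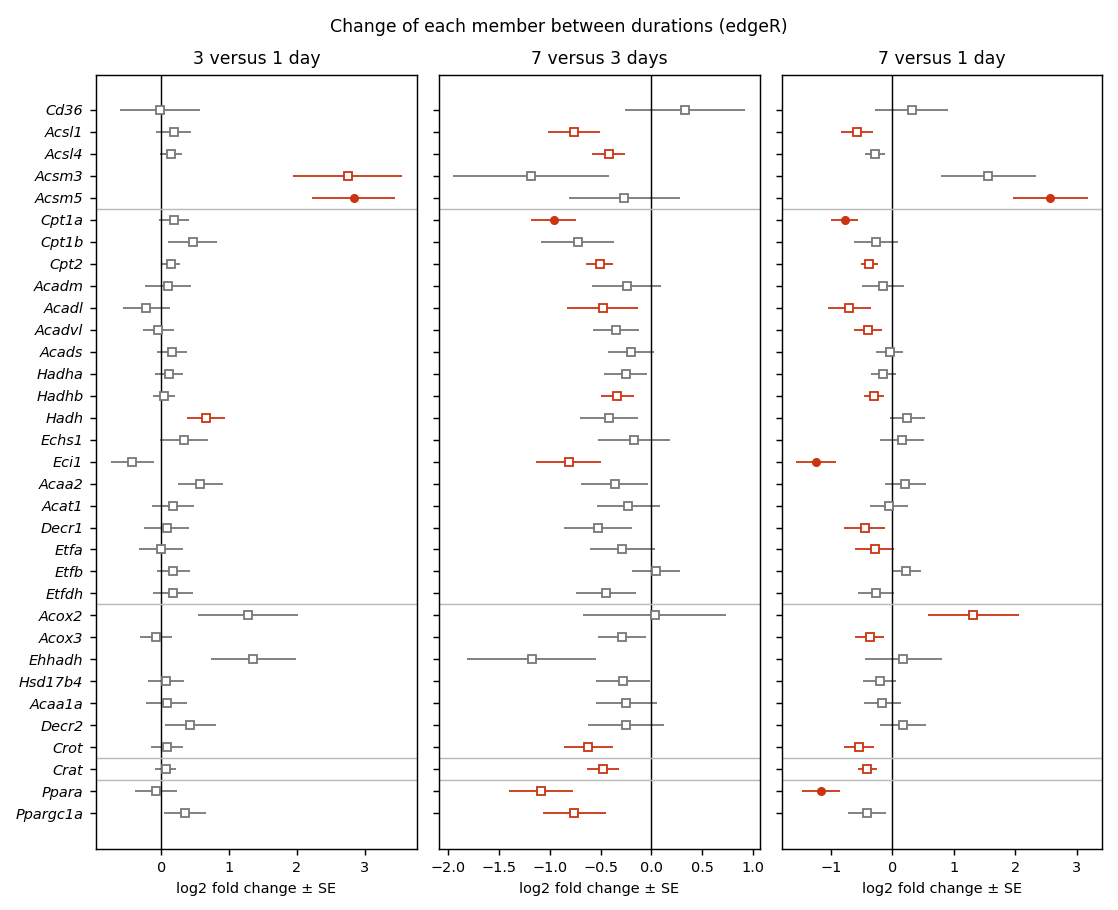
Log2 fold change with SE of each member in 3 comparisons from the edgeR model over 18 libraries; filled circles passed the test there and red symbols passed it without the libraries labelled 14 days. From 3 to 7 days nearly all points lie left of 0, with 1 filled circle (Cpt1a) and 11 red symbols.

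Comparing 7 days with 1 day, 1 member was higher and 3 were lower, beside 25.6% of all genes called, so the share of members called (12.1%) was below the background. Acsm5 stayed up, at 6.1, 4.11, 5.18, 2.19 and 4.59 FPKM at 7 days, with a log2 fold change of 2.57 ± 0.61 (adjusted p = 0.00606). Eci1 was lower by -1.24 ± 0.32 (adjusted p = 0.01), from 150, 168, 108, 117 and 96.2 FPKM at 1 day to 63.5 FPKM or less at 7 days. Ppara was at 2.87, 2.53, 2.88, 2.76 and 2.85 FPKM at 1 day and at 1.1, 1.64, 1.61, 1.05 and 1.12 FPKM at 7 days, a log2 fold change of -1.16 ± 0.31 (adjusted p = 0.0129). These 3 genes did not overlap between 1 and 7 days, and neither did Acsl1, Acsm3 and Cpt2, which were not called over 18 libraries. The share of all genes separated in this way is not given here for this comparison. The path of Ppara differed from library to library in between: 3 day 3 libraries had 3.26, 2.65 and 4.37 FPKM and the remaining 2 had 1.37 and 1.5 FPKM, within the day 7 range. Cpt1a was lower by -0.77 ± 0.22 (adjusted p = 0.0165), with 1 overlap: replicate 4 of day 7 (47.4 FPKM) exceeded 3 day 1 libraries (44.3 to 47.3 FPKM). All 4 calls were kept in each of the 27 settings tried, among them each library left out.

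Without the libraries labelled 14 days 2 members were higher and 13 lower at 7 than at 1 day, beside 38.2% of all genes called in either direction and 20.2% called lower. Of the mitochondrial members 8 of 18 were lower (Cpt1a, Cpt2, Acadl, Acadvl, Hadhb, Eci1, Decr1 and Etfa), of the peroxisomal 2 of 7 (Acox3 and Crot), with Acsl1, Crat and Ppara. Acadl had the clearest of the added calls (-0.71 ± 0.12, adjusted p = 0.000611), with replicate 5 of day 1 at 173 FPKM below its 4 companions at 250 to 286 FPKM and inside the day 7 range. Acox2 was called higher in this fit (1.30 ± 0.40, adjusted p = 0.0186); its day 1 libraries were at 0.525, 0.685, 0.585, 0.73 and 1.64 FPKM and its day 7 libraries at 1.73, 1.58, 4.56, 1.38 and 1.63 FPKM. Acadm (-0.15 ± 0.34), Hadha (-0.14 ± 0.21), Ehhadh (0.18 ± 0.63), Crot (-0.54 ± 0.24, adjusted p = 0.105) and Ppargc1a (-0.41 ± 0.31) were not called over 18 libraries. Acads, Acat1, Echs1, Etfdh, Hsd17b4, Acaa1a and Decr2 passed in no comparison among the first 3 durations in either fit, nor did Acaa2 and Cpt1b. Markers of other cells moved over the same days: all 6 fibroblast markers, all 4 T cell markers found and 4 of 6 macrophage markers were called higher at 7 than at 1 day, with median log2 fold changes of 1.65, 2.35 and 1.74. Of the 15 proximal tubule markers 0 were called higher and 1 lower, with a median of 0.12. The part of these cells in the member results was not tested.

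Members at 3 days were also set against the mean of 1 and 7 days, a contrast that is positive for a peak and also for a fall that is steeper after 3 days. Against the mean of 1 and 7 days, 32 of 33 members were higher at 3 days, with a median log2 difference of 0.28, while 48.2% of all genes tested were positive. From 1 to 3 days 26 of 33 members had positive log2 fold changes; Acadl and Eci1 were among those whose group mean was lower at each later duration, from 248 to 215 and 162 FPKM and from 128 to 95.7 and 57.3 FPKM. None was called by edgeR or DESeq2 (7 members had an unadjusted p under 0.05), and edgeR called 0% of all genes in this contrast, with 6.46% at an unadjusted p under 0.05. The 2 members with the smallest p were Acsm5 (1.55 ± 0.47, adjusted p = 0.523) and Acsm3 (1.97 ± 0.63, adjusted p = 0.554). The members followed in every comparison were all positive here, from Acadm (0.17 ± 0.29) and Hadha (0.18 ± 0.18) through Crot (0.35 ± 0.20), Ppara (0.50 ± 0.26), Ppargc1a (0.55 ± 0.26), Cpt1a (0.57 ± 0.19) and Acox2 (0.63 ± 0.61) to Ehhadh (1.27 ± 0.52). Proximal tubule markers had the same direction, with 14 of 15 positive, a median of 0.66 and 0 called.

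The balance of mitochondrial and peroxisomal steps was compared by summed FPKM. The summed FPKM of the 18 mitochondrial members averaged 1463 ± 142 (SD over 5 libraries) at 1 day, then 1526 ± 180 and 1252 ± 105 at 3 and 7 days. The sum of the 7 peroxisomal members was 216 ± 32.4, 254 ± 40.1 and 204 ± 31.5 FPKM. Their ratio was 6.85 ± 0.70, 6.04 ± 0.60 and 6.22 ± 0.79, and the ranges of the 3 groups overlapped (6.16 to 8.02, 5.59 to 7.08 and 5.54 to 7.59). The sets were also compared by mean log2(FPKM+1), each gene centred on its mean. Mitochondrial minus peroxisomal was then 0.12 ± 0.09, -0.08 ± 0.14 and -0.08 ± 0.22, again with overlap. From 1 to 3 days the medians of log2 fold change differed the other way, by 0.06 (-0.14 to 0.10 with single libraries left out). From 3 to 7 days the median log2 fold change was -0.36 for mitochondrial and -0.28 for peroxisomal members, and from 1 to 7 days -0.26 and -0.16. The difference between the medians, -0.08 and -0.10, changed sign in both comparisons when single libraries were left out (-0.15 to 0.01 and -0.29 to 0.05). Against the mean of 1 and 7 days the difference at 3 days was -0.14, and it stayed between -0.16 and -0.06 with each library left out; no test was run on these differences.

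Within groups the ratio differed between libraries. At 1, 3 and 7 days the highest ratio was in replicate 5 (8.02), replicate 5 (7.08) and replicate 4 (7.59), each the library with the lowest proximal tubule sum of its group (756, 1264 and 807 FPKM). At 3 and 7 days the lowest ratio was in replicate 3 (5.59 and 5.54), each the library with the highest proximal tubule sum (3464 and 2785 FPKM). In the libraries labelled 14 days the ratio ran from 6.64 in replicate 2 to 8.62 in replicate 3. At 1 day the lowest ratio, 6.16 in replicate 4, was in a library with the second-highest sum, 1481 FPKM. Whether proximal tubule RNA sets the ratio was not tested.

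**Figure D4:**
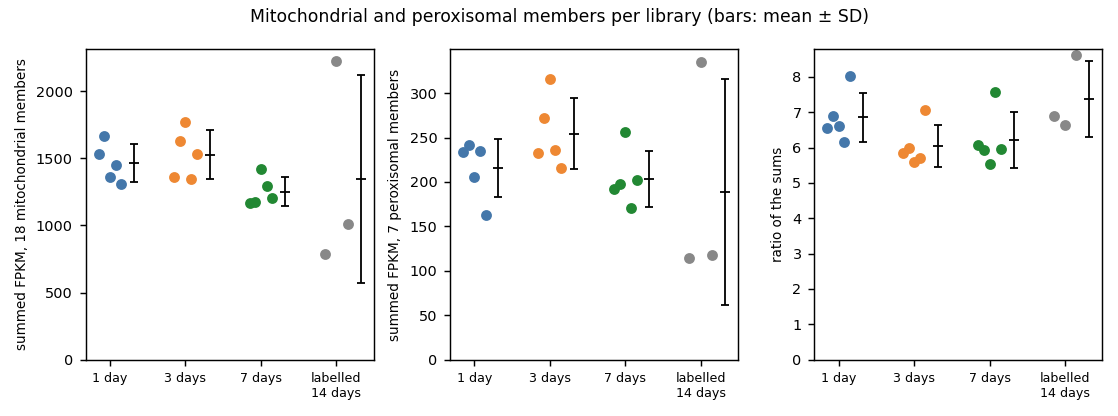
Summed FPKM of the mitochondrial members (left), of the peroxisomal members (middle) and their ratio (right) in each library, with mean and SD per labelled duration. The 3 first durations overlap in the ratio at about 5.5 to 8, and the libraries labelled 14 days spread from 787 to 2227 in the mitochondrial sum.

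The 3 libraries labelled 14 days gave opposite pictures of the pathway. In replicate 2 the FPKM of 12 of 18 mitochondrial and 3 of 7 peroxisomal members lay above all 15 libraries of 1, 3 and 7 days, and 1 and 0 lay below. In replicate 1, 12 mitochondrial and 5 peroxisomal members lay below all 15 and 0 above, and in replicate 3, 9 and 5 lay below and 0 above. Over 14030 genes with a mean FPKM of at least 1, the shares above and below were 7.9% and 52.8% in replicate 2, 15.6% and 33.3% in replicate 1 and 19.7% and 26.9% in replicate 3. Acadm illustrates the split, with 89.8, 373 and 109 FPKM in replicates 1, 2 and 3 against 88 to 132 FPKM in all other libraries. Ehhadh was at 16.7, 98.6 and 12 FPKM, Acadl at 57.7, 292 and 89.9 FPKM, and Acox2 at 0.189, 7.63 and 0.435 FPKM. Replicate 2 was thus the highest of all 18 libraries for these 4 genes, and for Acadl and Acox2 replicates 1 and 3 were the lowest 2.

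**Figure D5:**
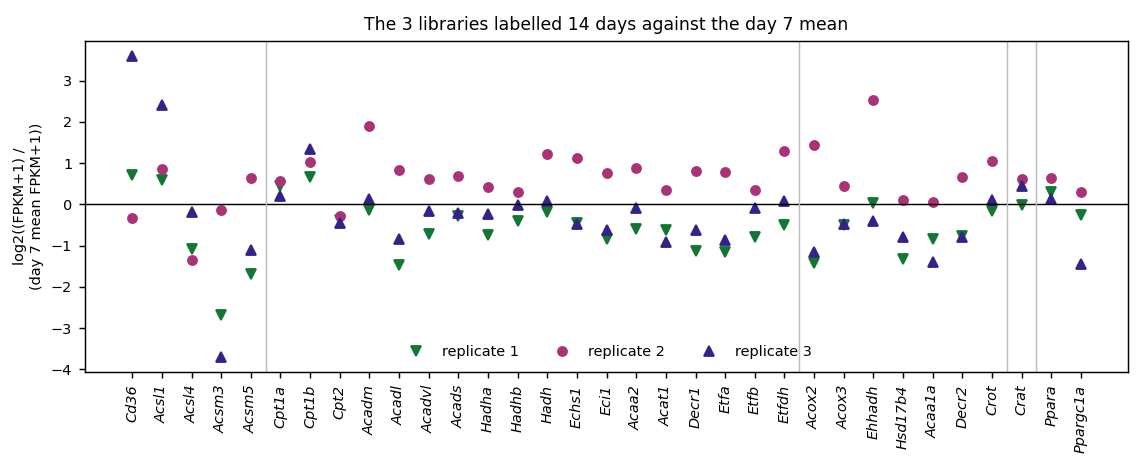
Log2 of (FPKM+1) in each library labelled 14 days over the day 7 mean (FPKM+1), for each member in the order of the pathway. Replicate 2 (circles) lies above 0 for most mitochondrial and peroxisomal members and replicates 1 and 3 (triangles) mostly below; Cd36 and Acsl1 are highest in replicate 3.

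Uptake genes had another order. Cd36, the fatty acid translocase, which is abundant in adipocytes and capillary endothelium, was at 3.29, 1.08 and 31 FPKM in replicates 1, 2 and 3, against 0.703 to 2.44 FPKM elsewhere. Acsl1, the chief acyl-CoA synthetase of fat cells, was at 31.5, 37.8 and 114 FPKM. Replicate 3, which was highest for both, had the highest adipocyte sum, with Plin1, the lipid droplet coat protein, at 142 FPKM and Adipoq at 96.9 FPKM; Plin1 was at 0 in replicate 2 and at 18.7 FPKM in replicate 1. Its endothelial markers summed to 417 FPKM, against 30.1 to 120 in the libraries of 1, 3 and 7 days. The part of these cells in the Cd36 and Acsl1 values was not tested. Acsm3, by contrast, was lowest in replicate 3 (6.25 FPKM) and at 84.3 FPKM in replicate 2.

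Group tests with these libraries rest on that spread. Against 1 day 7 members were called higher (Cd36, Acsl1, Acsm5, Cpt1b, Acadm, Hadh and Ehhadh) and 1 lower (Acsl4), beside 32% of all genes. Against 3 days 3 were higher (Cd36, Acsl1 and Acadm) and 2 lower (Acsl4 and Cpt2), beside 28.4%. Against 7 days 11 were higher (Cd36, Acsl1, Cpt1a, Cpt1b, Acadm, Hadh, Etfdh, Ehhadh, Crot, Crat and Ppara) and 1 lower (Acsl4), beside 38.3%. These comparisons share the libraries labelled 14 days. The shares of members called were 24.2%, 15.2% and 36.4%. None exceeded the share of all genes, and that against 7 days was close to it. Without replicate 2 most calls were in the other direction: 2 members were higher and 12 lower against 1 day, 2 higher and 18 lower against 3 days, and 4 higher and 8 lower against 7 days. The shares of all genes called without replicate 2 are not given here, so whether these counts exceed a general shift was not tested. Acadm was at 1.26 ± 0.38, 1.17 ± 0.38 and 1.41 ± 0.38 on the log2 scale against 1, 3 and 7 days (adjusted p = 0.0195, 0.0314 and 0.00862), and without replicate 2 at 0.01, -0.08 and 0.18 with adjusted p of 0.959, 0.744 and 0.38. Ehhadh was at 2.07 ± 0.70 against 1 day (adjusted p = 0.0337) and 1.89 ± 0.70 against 7 days (adjusted p = 0.0433), and at 0.17 and 0.00 without replicate 2. Cd36 was at 3.30 ± 0.66 against 1 day (adjusted p = 0.00171) and at 1.06 without replicate 3 (adjusted p = 0.0823). Hadha (0.14 ± 0.24, 0.03 ± 0.24 and 0.29 ± 0.24) and Ppargc1a (-0.33 ± 0.37, -0.67 ± 0.37 and 0.08 ± 0.37) were not called against 1, 3 or 7 days, and neither was Acox2 (2.16 ± 0.83 against 1 day, adjusted p = 0.055).

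A few members depended less on which of the 3 libraries was used. Acsl4, which prefers arachidonic acid, was at 15.7, 12.8 and 30.2 FPKM against 30 to 57.2 FPKM in all others. Its log2 fold change against 3 days (-0.96 ± 0.19, adjusted p = 0.00186) passed in all 24 settings tried. Against 1 and 7 days Acsl4 passed in 23 and 18 of 24 settings. Leaving out replicate 1 labelled 14 days gave it an adjusted p of 0.146 against 7 days. Cpt1b, at 7.39, 9.77 and 12.3 FPKM, was above all 5 day 7 libraries (3.03 to 5.37 FPKM), with a log2 fold change of 1.52 ± 0.41 (adjusted p = 0.00819), and Acsl1 against 7 days was at 1.82 ± 0.29 (adjusted p = 0.000229); both passed in all 24 settings. Day 1 replicate 5 and day 3 replicates 1 and 5 reached similar Cpt1b levels (9, 8.68 and 13.1 FPKM). Crat against 7 days (0.73 ± 0.18, adjusted p = 0.00465) passed in 23 of 24 settings. Crot against 7 days (0.86 ± 0.27, adjusted p = 0.0189) passed in 20 of 24 settings but depended on replicate 2. Without that library it was at 0.16 (adjusted p = 0.409). Cpt2, the inner-membrane carnitine transferase, was at 12.6, 13.6 and 12 FPKM, below all 15 other libraries (15.7 to 26.6 FPKM), yet its log2 fold change against 7 days was -0.06 ± 0.16, from counts scaled by TMM, which sets samples level on most genes and gave replicate 2 a factor of 0.697. Transcripts of the mitochondrial genome took 14.4% to 27.4% of counts in these 3 libraries and 7.11% to 13.6% in the others.

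Other PPARα targets were fixed as a list of 20, of which 15 were tested. From 1 to 3 days 1 rose and 0 fell: Fabp3, a fatty acid carrier protein, went from 31.2 ± 8.46 to 89.7 ± 29.2 FPKM (1.52 ± 0.27, adjusted p = 0.0081). Leaving out the libraries labelled 14 days added 2 lower genes, Plin2 and Slc27a4, beside 10.5% of all genes called in that fit. From 3 to 7 days 0 rose and 2 fell, and the median of the list was -0.56. Pdk4, the kinase that shuts pyruvate oxidation when fat is burned, was at 25.5, 50.9, 11.5, 18.4 and 35.6 FPKM at 3 days and at 3.98, 4.17, 2.34, 7.6 and 3.02 FPKM at 7 days (-2.82 ± 0.46, adjusted p = 0.0117). Its libraries did not overlap between 3 and 7 days, and its highest group mean was at 3 days. Without the libraries labelled 14 days Vnn1 and Cyp4a2, a fatty acid omega-hydroxylase, also passed (-1.14 and -1.49). In that fit 26.7% of the list was called lower, beside 3.17% of all genes. From 1 to 7 days 1 rose (Fabp3) and 4 fell: Pdk4, the lipid droplet protein Plin2 (188 ± 50.3 to 68.8 ± 15.1 FPKM; -1.54 ± 0.27, adjusted p = 0.000943), the fatty acid transporter Slc27a4 and the lipase inhibitor G0s2. That is 33.3% of the list called beside 25.6% of all genes. Without the libraries labelled 14 days 2 were higher and 7 lower, beside 38.2% of all genes called in that fit.

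Regulators other than the members were a list of 26, all tested. From 1 to 3 days and from 3 to 7 days 0 were called over 18 libraries (6 and 9 had an unadjusted p under 0.05). The fit over the first 3 durations alone called 5 higher and 0 lower, then 1 higher and 5 lower. It called 10.5% of all genes from 1 to 3 days, 3.17% as lower from 3 to 7 days and 38.2% from 1 to 7 days. From 1 to 7 days over 18 libraries 1 rose and 6 fell, or 26.9% of the list, close to the 25.6% of all genes called (5 higher and 8 lower in the fit over the first 3 durations). The higher gene was Tgfb1, the profibrotic cytokine (26.9 ± 7.97 to 55.3 ± 13.9 FPKM; 0.97 ± 0.31, adjusted p = 0.0299). Rxra, the DNA-binding partner of PPARα, went from 25.8 ± 3.48 to 14.2 ± 5.01 FPKM (-0.94 ± 0.25, adjusted p = 0.0113). Prkaa2 and Prkaa1, catalytic subunits of the energy sensor AMPK, were at -1.59 ± 0.35 (adjusted p = 0.00394) and -0.38 ± 0.13 (adjusted p = 0.035), and the coactivator Med1 and the corepressors Nrip1 and Ncor1 were also lower (-0.98, -0.71 and -0.58).

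Of the other mitochondrial genes (25 tested) 0 were called from 1 to 3 or from 3 to 7 days (2 and 3 at an unadjusted p under 0.05), and from 1 to 7 days 0 rose and 1 fell, Acad9, an assembly factor of complex I related to the dehydrogenases (-0.41 ± 0.14, adjusted p = 0.0453). The fit over the first 3 durations called 3 higher and 0 lower, 0 higher and 2 lower, and 1 higher and 4 lower in these comparisons. It called 10.5% of all genes from 1 to 3 days, 3.17% as lower from 3 to 7 days and 38.2% from 1 to 7 days. Slc22a5, the plasma membrane carnitine transporter, had 0.84 ± 0.31 from 1 to 3 days and -0.74 ± 0.31 from 3 to 7 days (adjusted p = 0.164 and 0.211), both of which passed without the libraries labelled 14 days. Of the other peroxisomal genes (36 tested) 0 were called in the first 2 comparisons (7 and 4 at an unadjusted p under 0.05), and 1 rose and 3 fell from 1 to 7 days, 11.1% beside 25.6% of all genes. The fit over the first 3 durations called 3 higher and 0 lower, 0 higher and 2 lower, and 5 higher and 6 lower, beside the shares of all genes given above for that fit. The lower genes, Agps (-1.35 ± 0.27), Gnpat (-0.33 ± 0.09) and Far1 (-0.38 ± 0.11), make ether lipids rather than oxidise fatty acids. Pex11a, a peroxisome division factor, was at 36.8, 54.4, 51, 42.9 and 42.2 FPKM at 3 days and at 20.7, 18.5, 23.5, 26.5 and 24.3 FPKM at 7 days (-1.07 ± 0.25, adjusted p = 0.0541; adjusted p = 0.0063 without the libraries labelled 14 days).

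Genes of fatty acid synthesis and storage formed a list of 24 found in the table. Of the 23 tested, 0 were called from 1 to 3 days (4 at an unadjusted p under 0.05) and 0 rose and 2 fell from 3 to 7 days: Me1, the malic enzyme that supplies NADPH, and the elongase Elovl7. From 1 to 7 days 2 rose and 5 fell, 30.4% beside 25.6% of all genes. Without the libraries labelled 14 days 2, 4 and 9 were lower and 0, 0 and 2 higher in these 3 comparisons. That fit called 10.5% of all genes from 1 to 3 days, 3.17% as lower from 3 to 7 days and 38.2% from 1 to 7 days. The lower genes over 18 libraries were Me1 (27.2 ± 2.47 to 16.5 ± 2.18 FPKM; -0.80 ± 0.12, adjusted p = 0.000446), Elovl7, Acaca, Gpam and Acly, and the higher genes were the desaturases Scd2 (15.4 ± 10.2 to 57.8 ± 20.7 FPKM; 1.85 ± 0.53, adjusted p = 0.0177) and Fads2 (1.13 ± 0.32, adjusted p = 0.0161). In the libraries labelled 14 days 12 of the 23 were called higher and 1 lower against 7 days, 56.5% beside 38.3% of all genes; Me1 was at 70.5, 48.9 and 103 FPKM and Dgat2, which makes triglyceride, at 44.1, 17.3 and 91 FPKM, both highest in replicate 3, the library with the highest adipocyte sum.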

How the data were processed

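RNAiso Plus was used to extract the RNA, per the labels' protocols; it was captured on oligo-dT beads and primed with random hexamers. fastp 0.19.7 and HISAT2 2.0.4 are named in the submitters' processing notes; the counter, strand setting and annotation build were not given in the sources used here. For each gene the authors deposited a read count and an FPKM in every library; FPKM equalled count over length and total (checked on 8250 genes with at least 50 counts). Groups came from the labels alone, which do not tie libraries to separate animals, so p-values reflect only how these libraries vary, which may be technical.

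Counts were filtered (filterByExpr, minimum 10, total 15), TMM scaled and fitted with edgeR 4.0.16 (R 4.3.3), 18 libraries in 1 model, adjusted p under 0.05 over 14511 genes. The SE is the log2 fold change over the square root of F. Intervals are 1.96 SE. All members were named, and from other lists the called genes with the smallest p. The values of 2 genes counted in those lists are not reported here. Members and lists were chosen with earlier results of these data known. In counts simulated for 7 versus 3 days (14393 genes tested), the test called 55% of 100 genes changed 2-fold and 89% of 100 changed 4-fold, and 6.49% of its calls were unchanged genes. Over all comparisons 36% to 67% of 2-fold changes were called, with 36% for the libraries labelled 14 days against 1 and 7 days. Unchanged genes made up 4% to 9.68% of calls, with 9.68% for 3 versus 1 day. Replicate numbers were not used as pairs in the fit over 18 libraries. DESeq2 1.42.0 and other alternatives are given in the closing section.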

Additional observations from a re-analysis of the deposited data

Results flagged for a closer look

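A library was far from the 4 others of its group, by Dixon's ratio of gap to range (critical value 0.71 for 5 libraries), in 13 of 117 groups tested. The critical value is set for 1 in 20 groups of normally distributed values. The groups share libraries and FPKM need not be normally distributed, so the count cannot be set against that rate. Replicate 3 of day 3 stood high for Acsm3 (603 FPKM against 44.8 to 122), Acat1 (157 FPKM against 70.9 to 93.3), Echs1 (45.2 FPKM against 19.2 to 26.4) and Decr2 (46.4 FPKM against 15.3 to 22). Replicate 3 of day 7 stood high for Acaa2 (107 FPKM against 48.1 to 64.4), Hadh (54.6 FPKM against 38 to 41.3), Etfdh (36.1 FPKM against 28.6 to 29.8) and Acox2 (4.56 FPKM against 1.38 to 1.73). Both libraries have the highest proximal tubule sum of their group. Replicate 5 of day 1, the library with the highest collecting duct sum among 1, 3 and 7 days, stood high for Cpt1a (86.4 FPKM against 44.3 to 54.2), Cd36 (2.44 FPKM against 0.756 to 1.17) and Acox2 (1.64 FPKM against 0.525 to 0.73). The ratio of mitochondrial to peroxisomal summed FPKM was high in replicate 5 of day 3 (7.08 against 5.59 to 6) and replicate 4 of day 7 (7.59 against 5.54 to 6.08).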

How the results depend on the processing

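Counts of members called depended most on the libraries labelled 14 days. Without them 3, 11 and 15 members were called (3 versus 1 day, 7 versus 3 days and 7 versus 1 day), against 1, 1 and 4; without replicate 5 of day 1 as well 5, 14 and 15, with 1 for 3 days against the mean of 1 and 7 days; and without replicate 3 of day 3 and the libraries labelled 14 days 2, 8 and 17 (these last 2 alternatives were chosen after seeing the data). With only the libraries of the groups compared the counts were 4, 8 and 17, and 1, 2 and 3 for the libraries labelled 14 days against 1, 3 and 7 days, in place of 8, 5 and 12. DESeq2 called 2 and 3 members for 3 versus 1 day and 7 versus 3 days. Scaling by library totals gave 0 for 7 versus 3 days, and 8 and 7 for the libraries labelled 14 days against 3 and 7 days; it shifted the median of all genes by -0.22 to -0.31 in those comparisons. No filter on low counts gave 0 for 7 versus 3 days. Leaving out single libraries gave 0 to 3 (3 versus 1 day), 0 to 7 (7 versus 3 days), 4 to 14 (7 versus 1 day), 0 to 0 (3 days against the mean) and 6 to 14, 2 to 20 and 7 to 13 (labelled 14 against 1, 3 and 7 days). The highest of these came without replicate 2 labelled 14 days, shared with replicate 1 against 1 day, except against 7 days, where leaving out replicate 1 or 3 gave 13. The difference between mitochondrial and peroxisomal medians ranged from -0.14 to 0.10, -0.15 to 0.01, -0.29 to 0.05, -0.16 to -0.06, -0.30 to 0.42, -0.089 to 0.67 and -0.0036 to 0.41 in the same order, and was -0.12 in place of 0.10 against 7 days with Crat counted as peroxisomal. All 16 reversals of a member came from leaving out replicate 2 labelled 14 days. The log2 fold changes over all single libraries left out then ran, against 1 day, from -0.65 to 0.30 for Acadvl, -0.45 to 0.39 for Hadha and -1.15 to 0.37 for Etfa. Against 3 days they ran from -0.076 to 1.52 for Acadm, -0.60 to 0.35 for Acadvl, -0.56 to 0.29 for Hadha, -0.36 to 0.19 for Hadhb, -1.14 to 0.38 for Etfa, -2.61 to 1.43 for Acox2 and -0.47 to 0.49 for Crot. Against 7 days they ran from -1.84 to 0.51 for Acsm5, -0.96 to 0.73 for Acadl, -0.69 to 0.75 for Decr1, -0.84 to 0.68 for Etfa, -0.0099 to 1.29 for Etfdh and -2.62 to 1.41 for Acox2. The cause of these changes was not tested. In their lowest library Acox2 had 3 counts, Acsm5 5, Ppara 17, Ppargc1a 43 and Cd36 45, so depth limits these members most.

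Replicate numbers gave no clear pairing of libraries, though these values cannot exclude it. The 24 same-number pairs had correlations from -0.42 to 0.40, 10 of them over 0.1. Their median was 0.041, against -0.034 for pairs of unlike number, and 2 of 18 libraries correlated best with one of their own number. With the replicate number as a block 0 members were called for 7 versus 3 days and 4 for the libraries labelled 14 days against 7 days; the other counts stayed within 1.5 times.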
